A study of Mus musculus with 30 samples.

Results

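Translating ribosome affinity purification (TRAP) RNA of noradrenergic neurons was compared with TRAP RNA of serotonergic neurons from the mouse hindbrain. The 15 TRAP arrays, of 30 in the series, were chosen by their labels: 8 from mice carrying Tg(Slc6a2-EGFP/Rpl10a)JD1538Jdd/J and 7 from mice carrying Tg(Slc6a4-EGFP/Rpl10a)JD60Jdd/J, both on a B6;FVB background. Both transgenes put an EGFP tag on the ribosomal protein Rpl10a, under the Slc6a2 driver (the noradrenaline transporter) or the Slc6a4 driver (the serotonin transporter). All mice were adults of 6 to 12 weeks, carried an implanted telemetry device, were housed at 30 °C and received either 100 ug per kg of lipopolysaccharide (LPS), which causes fever, or sterile PBS. Females and males of each line and treatment were measured once in each of 2 amplification batches, except PBS males of the Slc6a4 line, where 1 array of batch 2 was analysed. The other 15 arrays of the series (7 of Slc6a2, 8 of Slc6a4) held hindbrain RNA that was not TRAP RNA and served as the background for the comparison. They were of 2 kinds: 7, all of batch 1, held RNA taken before the precipitation, and 8, all of batch 2, held the unbound RNA left after it. Both kinds are called total RNA below, although tagged ribosomes had been taken out of the unbound RNA.

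Noradrenergic neurons make noradrenaline from tyrosine by way of dopamine, release it from widely branching axons and take it back up through Slc6a2. Serotonergic neurons of the raphe nuclei make serotonin from tryptophan and take it back up through Slc6a4. Both types share the decarboxylase that forms dopamine or serotonin and the vesicular monoamine transporter that packs amines into vesicles. They differ in the hydroxylases that set the transmitter and in the transcription factors that keep each identity. The arrays read each transcript through one or more probes, and the file does not pair probe IDs with genes, so no result below can be given to a named gene. The lines' labels could therefore not be set against the defining markers of either neuron, and 2 probes per direction are described by ID.

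The arrays themselves separated by line. Between 15432 and 19101 probes were detected per Slc6a2 TRAP array (mean 17687 ± 1184, SD, n = 8), a detected probe being one with a detection p under 0.01. The Slc6a4 TRAP arrays had between 17012 and 19424 (mean 18393 ± 872, SD, n = 7). The ranges overlapped, and the means did not differ beyond the spread of arrays (two-sided exact permutation test, p = 0.22; 0.71 within batch 1 and 0.20 within batch 2). On the first principal component of the TRAP arrays, with 20.9% of the variance, the Slc6a4 arrays lay in a narrow band from -52.7 to -48.4 and the Slc6a2 arrays from 21.5 to 65.6. The second component, with 13.2%, spread the Slc6a2 arrays from -54.2 to 118, and the array at 118, the PBS male of batch 2, also had the fewest probes detected. On that component the batches separated within both lines. The Slc6a2 arrays of batch 1 lay from -54.2 to -21.1 and those of batch 2 from 11.1 upward. For the Slc6a4 arrays these ranges were -12.1 to -5.71 and 5.27 to 7.86.

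**Figure D1:**
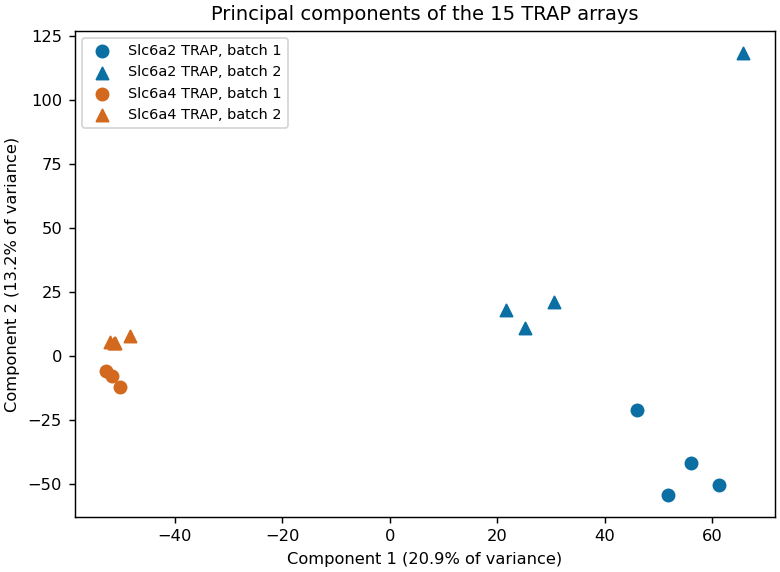
Each point is 1 of the 15 TRAP arrays on the first (x axis, 20.9% of the variance) and second (y axis, 13.2%) principal component of the log2 levels; colour gives the line and shape the amplification batch. Slc6a4 arrays form 1 tight group at the left, and the 8 Slc6a2 arrays are spread, with the PBS male of batch 2 at 118 on the second component.

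The lines also differed in how alike their arrays were. Each Slc6a4 array correlated with the others of its line at a median r, across probes, between 0.910 and 0.960. For Slc6a2 arrays the same value lay between 0.817 and 0.862. With arrays of the other line, each Slc6a2 array correlated at a median r between 0.834 and 0.907, which was higher than with its own line on each of the 8 arrays. The median residual SD, with each line fitted alone, was 0.58 log2 units in Slc6a2 TRAP and 0.30 in Slc6a4 TRAP, and it was 0.54 in Slc6a2 TRAP without the PBS male of batch 2. These correlations describe arrays across probes, which are not independent replicates, and carry no test.

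The comparison of the neuron types asks which transcripts one holds at a higher level than the other. Of 21863 probes tested, 1878 differed (8.59%, limma with an adjusted p under 0.05), with 750 (3.43%) at a higher level in Slc6a2 TRAP and 1128 (5.16%) at a higher level in Slc6a4 TRAP. In bulk RNA of this kind, a change in the number of tagged cells of a type and a change of RNA per cell cannot be told apart. Those called higher in Slc6a2 TRAP differed by a median of 1.00 log2 units (middle 50% from 0.47 to 1.63). Those called higher in Slc6a4 TRAP differed by a median of 1.06 (0.56 to 1.69). The balance between the directions depended on the scaling. With median centring in place of quantile normalisation 1091 probes were higher in Slc6a2 TRAP and 714 in Slc6a4 TRAP, and the median difference over all probes moved from -0.06 to 0.05 log2 units.

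Large differences were about evenly divided between the neuron types. At a fitted 8-fold or more (3 log2 units) 46 probes were higher in Slc6a2 TRAP and 53 in Slc6a4 TRAP. With median centring these counts were 49 and 49, and without background correction, where differences of dim probes are smaller, 17 and 15. In the fit that gave 46 and 53, the counts were 21 and 19 at 16-fold or more and 3 and 4 at 64-fold or more. Fitted sizes include levels near background: 18 of the 46 probes were detected on 0 arrays of Slc6a4 TRAP and 10 of the 53 on 0 of Slc6a2 TRAP. With each array's dim side raised to the lowest level among its detected probes, 28 and 29 probes reached 8-fold, 14 and 12 reached 16-fold, and 1 and 0 reached 64-fold. Every one of the 99 probes with a fitted difference of 3 log2 units or more was called, as were 292 of the 300 with 2 or more. Of the 1972 probes with a difference of 1 log2 unit or more, 967 passed. With a test against a minimum of 1 log2 unit, 170 probes passed, 79 higher in Slc6a2 TRAP and 91 in Slc6a4 TRAP.

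The size of a called difference was smallest among the brightest probes. The probes were ranked by mean TRAP level and put into 4 groups of equal size. In the dimmest group 4.50% were called (246 of 5465), with a median size of 1.72 log2 units. In the next groups the shares were 5.91% and 7.08%, with median sizes of 1.79 and 1.27. In the brightest group 16.9% were called (922 of 5466), and their median size was 0.52 log2 units. These are sizes of probes that passed, so they depend on the test as well as on the transcripts. In each group more probes were called higher in Slc6a4 TRAP than in Slc6a2 TRAP, under the quantile normalisation. The called probes of either direction therefore hold many bright transcripts with small differences, besides the few that are bright in the TRAP RNA of one line and near background in that of the other.

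**Figure D2:**
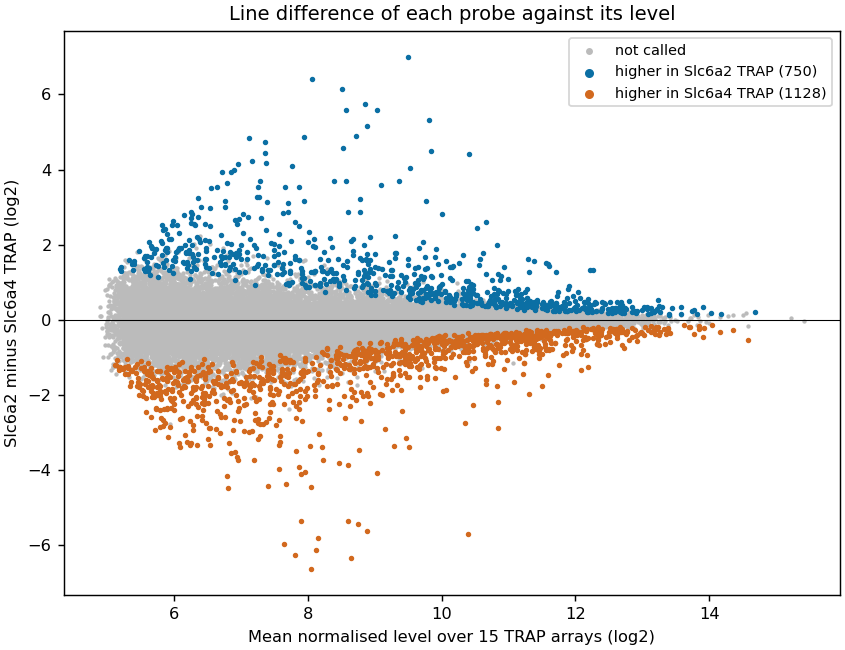
Each point is 1 of 21863 probes, with its mean level over the 15 TRAP arrays on the x axis and its Slc6a2 minus Slc6a4 difference on the y axis, both in log2 units; blue and orange points passed an adjusted p of 0.05. The 750 and 1128 called points lie on both sides of 0, and at high levels small differences are called; the ends of the range rest on dim levels near background.

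Most probes that differed were detected in the TRAP RNA of both lines. Of the 1878 called probes 1192 (63.5%) were detected on all 15 TRAP arrays, against 50.7% of all probes tested. Detection on a TRAP array does not show that the tagged neurons hold the transcript, and RNA of other cells carried over was not tested. A clean presence and absence was rare: 27 called probes were detected on all 8 Slc6a2 arrays and on 0 Slc6a4 arrays, and 33 on all 7 Slc6a4 arrays and 0 Slc6a2 arrays. Of the 40 probes that differed by 4 log2 units or more, 4 were detected on all 15 arrays. In total RNA 71 of the called probes (3.78%) were detected on no array, against 1.63% of all tested, and 1491 (79.4%) were detected on all 15, against 74.0% of all tested. For 349 probes (1.60%) every Slc6a2 array was above every Slc6a4 array, and for 550 (2.52%) every one was below.

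ILMN_2922875 was 1 of the 2 probes with the largest fitted differences toward the noradrenergic side. Its level in Slc6a2 TRAP ran from 12.29 to 13.08 log2 units with a median of 12.79, and the deposited intensities from 4512 to 13294. In Slc6a4 TRAP it ran from 4.81 to 6.60 with a median of 6.20, and it was detected on 4 of 7 arrays. The highest Slc6a4 array lay far below the lowest Slc6a2 array. The fitted difference was 7.00 log2 units (SE 0.28, limma adjusted p = 9.9e-08). With the Slc6a4 arrays raised to the lowest level among detected probes, it was at least 90.7-fold. The 4 detected Slc6a4 arrays were the PBS female, PBS male and LPS male of batch 2 and the LPS female of batch 1, so both treatments and both sexes were among them. In total RNA the probe was detected on all 15 arrays, at 7.46 ± 0.36 (SD, n = 7) in the Slc6a2 line and 7.25 ± 0.25 (SD, n = 8) in the Slc6a4 line. The fitted line difference there was 0.24 (SE 0.19, limma adjusted p = 0.74). Before the precipitation the lowest Slc6a2 array, at 7.78, lay just above the highest Slc6a4 array, at 7.72. In unbound RNA the lines overlapped, from 6.96 to 7.36 in Slc6a2 and from 7.04 to 7.42 in Slc6a4. Slc6a2 TRAP stood 5.27 log2 units (SE 0.25) above total RNA of the same line. Slc6a4 TRAP minus total RNA was -1.48 (SE 0.25, limma adjusted p = 0.00013), so the probe lay above total RNA in one line and below it in the other, with 3 undetected arrays on the lower side.

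ILMN_2669234 was detected in the TRAP RNA of one line alone. Its Slc6a2 TRAP levels ran from 10.49 to 11.48 log2 units with a median of 11.11 on 8 of 8 arrays. It was detected on 0 of 7 Slc6a4 TRAP arrays, where the deposited intensity was between 86.6 and 103.9, and on 0 of 15 total RNA arrays. The lowest Slc6a2 array, at 10.49, stood far above the highest Slc6a4 array, at 4.99. Because the level in Slc6a4 TRAP is a bound, the difference is given as at least 32.7-fold (limma adjusted p = 5.6e-08). That bound sets the Slc6a2 mean against the mean, over Slc6a4 arrays, of the lowest level among detected probes.

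ILMN_2729817 and ILMN_2713714 had the largest fitted differences toward the serotonergic side, and they are not ranked, since the Slc6a2 side of both is at background. For ILMN_2729817, in Slc6a4 TRAP the level ran from 11.28 to 11.81 log2 units with a median of 11.68. In Slc6a2 TRAP it ran from 4.37 to 7.11 with a median of 4.60. It was detected there on the LPS male array of batch 2 alone, at 7.11, while the other 7 arrays lay from 4.37 to 5.44. The level was at least 39.6-fold higher in Slc6a4 TRAP by the same bound (limma adjusted p = 1.7e-06), and at least 42.9-fold against the 7 undetected arrays alone. In total RNA it was near background in both lines, detected on 4 of 7 and 4 of 8 arrays, and the lines differed there by 0.23 (SE 0.21, limma adjusted p = 0.78). The detected arrays were all those from before the precipitation and, of unbound RNA, the LPS male of the Slc6a2 line alone. The highest total RNA array of the Slc6a4 line, at 5.87, lay far below the lowest Slc6a4 TRAP array.

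ILMN_2713714 ran in Slc6a4 TRAP from 11.77 to 12.27 log2 units with a median of 11.96, and in Slc6a2 TRAP from 5.09 to 6.47 with a median of 5.59 and 1 of 8 arrays detected. The groups did not overlap, and the level was at least 54.5-fold higher in Slc6a4 TRAP (limma adjusted p = 8.2e-08). This probe differed in total RNA as well. It was detected on all 15 total RNA arrays, at 6.10 ± 0.24 (SD, n = 7) in the Slc6a2 line and 7.45 ± 0.32 (SD, n = 8) in the Slc6a4 line, without overlap (highest 6.40, lowest 7.00). The line difference in total RNA was -1.35 (SE 0.18, limma adjusted p = 0.042), in the same direction as in TRAP. That call was lost under 16 of the 20 alternatives run for total RNA, with the same sign in each. It was -1.46 (limma adjusted p = 0.041) in RNA from before the precipitation alone and -1.25 (limma adjusted p = 0.89) in unbound RNA alone.

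**Figure D3:**
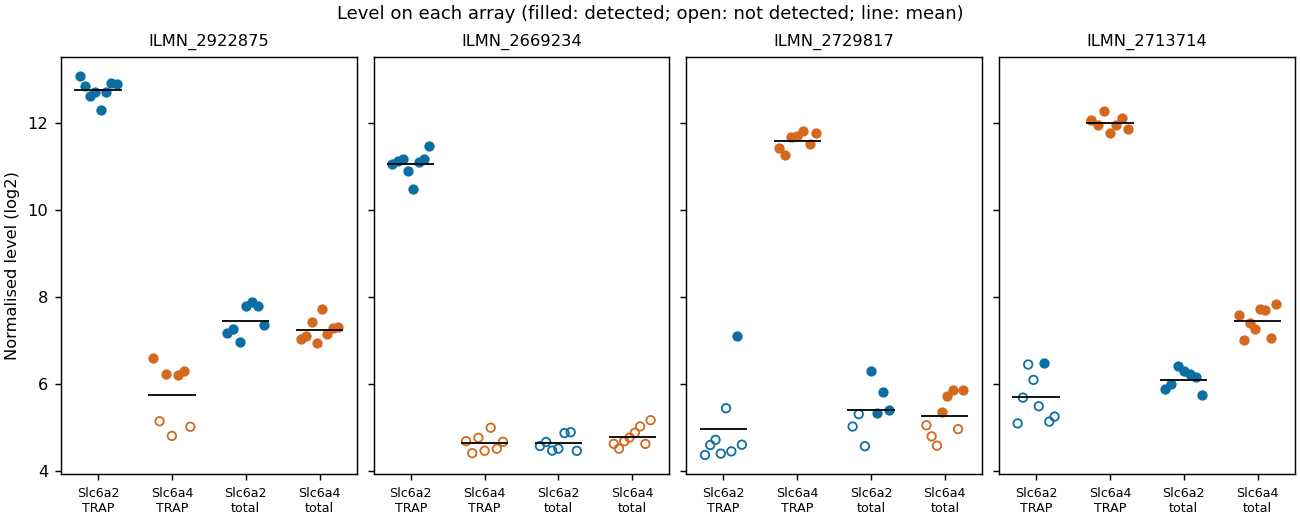
Normalised log2 level (y axis) of the 4 probes on each of the 30 arrays, by line and RNA fraction (x axis); filled points are detected, open points are not, and the bar is the mean of the arrays. The TRAP groups do not overlap for any of the 4, which were picked for the largest called TRAP differences. ILMN_2713714 also separates the lines in total RNA (6.10 against 7.45).

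Matching the arrays by sex, treatment and batch gave 7 pairs of 1 Slc6a2 and 1 Slc6a4 TRAP array, of different mice. With the dim array of a pair raised to its lowest detected level, ILMN_2922875 was higher in Slc6a2 TRAP by at least 83.8-fold in each pair and ILMN_2669234 by at least 27.5-fold. ILMN_2713714 was higher in Slc6a4 TRAP by at least 44.4-fold in each pair. For ILMN_2729817 the smallest difference was -4.40 log2 units, in the LPS males of batch 2, where both arrays were detected. These probes were picked from the same arrays for the largest called differences, so their agreement over the pairs is no separate result. Of all probes tested 1167 (5.34%) were higher in Slc6a2 TRAP in all 7 pairs and 1519 (6.95%) in none. Among the called probes 584 of 750 and 845 of 1128 kept their direction in all 7 pairs, which describes the arrays the calls were made from. The median difference of the called probes was alike in every pair, from 0.80 to 0.96 log2 units for those higher in Slc6a2 TRAP and from -1.10 to -0.79 for those higher in Slc6a4 TRAP. The widest of the latter belonged to the PBS males of batch 2.

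**Figure D4:**
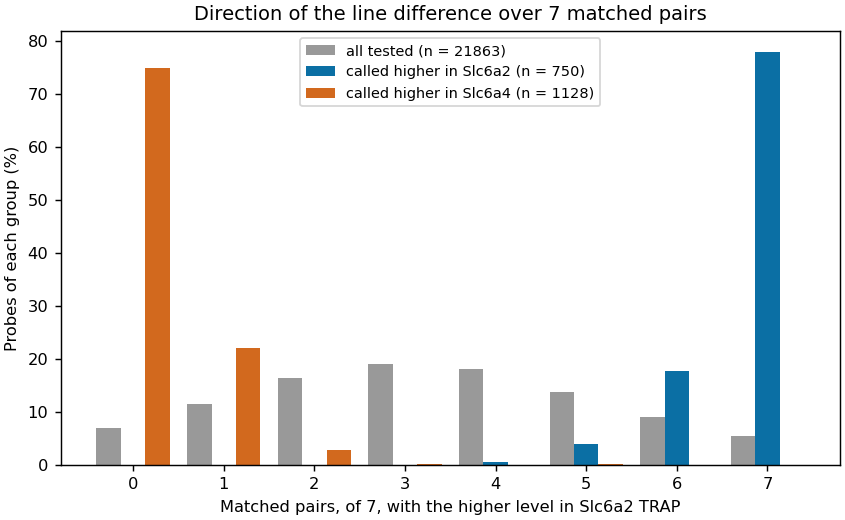
The x axis gives in how many of 7 pairs of arrays, matched for sex, treatment and batch, a probe was higher in Slc6a2 TRAP, and the y axis the percent of probes of each group. Called probes lie at the ends (584 of 750 at 7 and 845 of 1128 at 0) and all 21863 probes are spread with most in the middle.

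Calls made on some of the arrays were followed on arrays that had no part in them. The PBS arrays alone (4 Slc6a2 and 3 Slc6a4) called 242 of 19404 probes (1.25%) and the LPS arrays alone 1335 of 19648 (6.79%). Of 109 probes called higher in Slc6a2 TRAP under PBS, 103 (94.5%) were called in the same direction under LPS, where 2.99% of all probes were. Of 133 called higher in Slc6a4 TRAP under PBS, 122 (91.7%) were called under LPS, against 4.02% of all. Taken the other way, these are 18.7% and 16.4% of the longer lists from LPS, where 0.59% and 0.72% of all probes were called in these directions under PBS. Of the lists from LPS 92.4% and 95.6% had the same sign under PBS, against 44.6% and 55.4% of all probes.

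The same held between the sexes. The 8 female arrays called 957 of 19982 probes (4.79%) and the 7 male arrays 316 of 19001 (1.66%). Of 135 probes called higher in Slc6a2 TRAP in males, 113 (83.7%) were called in females, against 2.07% of all. Of 181 called higher in Slc6a4 TRAP in males, 146 (80.7%) were, against 2.92%. These are 29.6% and 27.1% of the lists from females, against 0.733% and 0.982% of all probes called in males. Batch 1 alone called 272 of 18739 probes (1.45%), 137 in one direction and 135 in the other, and batch 2 alone 1432 of 19924 (7.19%). Of those from batch 1, 109 of 133 (82.0%) higher in Slc6a2 TRAP and 118 of 135 (87.4%) higher in Slc6a4 TRAP were called in batch 2, against 3.01% and 4.34% of all. These are 20.1% and 15.1% of the lists of batch 2, against 0.739% and 0.750% of all probes called in batch 1. All arrays were normalised together, which these sets have in common. They also share the letter in the sample titles: in each set letter A held Slc6a2 TRAP arrays alone and letter B Slc6a4 TRAP arrays alone. Calls that recur between the sets therefore cannot tell a difference of letter from a difference of line.

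No probe passed for a line difference that itself differed between PBS and LPS (limma, 0 of 21863, a share of 0%, and 848 at an unadjusted p under 0.05). None passed for one that differed between the sexes (0 of 21863, 894 at an unadjusted p under 0.05). For ILMN_2922875 the line difference after LPS minus that after PBS was 0.38 log2 units (SE 0.56). For ILMN_2729817 it was 0.39 (SE 0.76) and for ILMN_2713714 0.46 (SE 0.49), with dim levels near background in each. With errors of this size, counts of 0 do not show that the neuron types differ equally in each condition.

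Few probes passed for a difference between the lines in total RNA, 7 arrays from before the precipitation and 8 of unbound RNA. There 5 of 24914 probes (0.0201%) differed between the lines, all lower in the Slc6a2 line, and 2210 had an unadjusted p under 0.05. With no filter on dim probes 5 also differed, 3 of them higher in the Slc6a2 line. RNA from before the precipitation alone gave 40 of 23147 (0.173%), 7 higher and 33 lower, with 4127 at an unadjusted p under 0.05. Unbound RNA alone gave 1 of 23004 (0.00435%), lower in the Slc6a2 line, with 1255 at an unadjusted p under 0.05. Low counts of calls do not show that the lines are alike in total RNA. Of the 702 probes called higher in Slc6a2 TRAP and also tested in total RNA, 363 (51.7%) had the same sign there, with a median total RNA difference of 0.01 log2 units. Of the 1066 called higher in Slc6a4 TRAP 568 (53.3%) had the same sign, with a median of -0.02. Of all 21047 probes tested in both, 49.3% were higher in the Slc6a2 line. At an unadjusted p under 0.05 in total RNA were 12.1% and 12.5% of the called probes and 9.15% of all.

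The exceptions were 4 of the 5 total RNA calls, which were also called in TRAP in the same direction. One was ILMN_2713714. Another, ILMN_2585676, was the largest in total RNA, at 6.46 ± 0.65 (SD, n = 7, 5.73 to 7.57) in the Slc6a2 line and 8.68 ± 0.91 (SD, n = 8, 7.47 to 9.68) in the Slc6a4 line. The ranges met at 7.47 to 7.57, across the 2 kinds of total RNA. Within each kind the lines did not overlap. Before the precipitation the highest Slc6a2 array was at 6.45 and the lowest Slc6a4 array at 7.47. In unbound RNA these were 7.57 and 9.20. Its difference was -2.35 log2 units (SE 0.26, limma adjusted p = 0.0075). In TRAP it was detected on 0 of 8 Slc6a2 arrays and 6 of 7 Slc6a4 arrays, at least 2.55-fold higher in Slc6a4 TRAP (limma adjusted p = 0.00039). That bound is over means, and in the matched pair with the lowest bound it was 0.98-fold. Slc6a4 TRAP minus total RNA was -1.09 log2 units (SE 0.32, limma adjusted p = 0.012). For Slc6a2 it was -1.84 (SE 0.32, limma adjusted p = 0.0002), with no Slc6a2 TRAP array detected. This probe was therefore higher in total RNA than in the TRAP RNA of both lines. The count of 5 was itself unstable, at 0 without the LPS female or the LPS male of batch 2 of the Slc6a4 line and 26 without the PBS male of batch 1 of the Slc6a2 line, 7 of them higher in the Slc6a2 line. It was 8 without the LPS male of the Slc6a2 line, 3 without the PBS female of batch 2 of the Slc6a2 line or the PBS male of batch 2 of the Slc6a4 line, and 2 without any 1 of 7 others. Batch and kind of total RNA (before or after precipitation) cannot be told apart there.

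**Figure D5:**
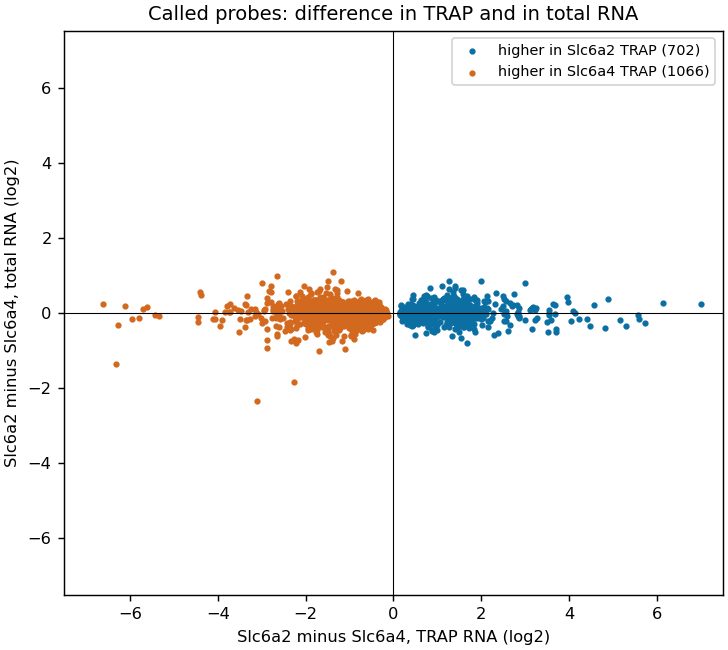
Each point is 1 probe called between the lines in TRAP and also tested in total RNA (702 blue and 1066 orange), with the Slc6a2 minus Slc6a4 difference in TRAP on the x axis and in total RNA on the y axis, both in log2 units on the same scale. The cloud lies along the horizontal axis. ILMN_2713714 and ILMN_2585676, at -1.35 and -2.35 in total RNA, lie below it; their TRAP values are fitted, with the Slc6a2 side at background.

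The line difference in TRAP was also tested directly against that in total RNA. The fit took all arrays as independent and gave TRAP and total RNA 1 shared estimate of spread per probe. The labels tie no array to a mouse, so no pairing of TRAP with total RNA was used. Of 26312 probes 1407 (5.35%) passed, 642 (2.44%) with a difference further toward Slc6a2 in TRAP and 765 (2.91%) further toward Slc6a4. Of the 750 probes higher in Slc6a2 TRAP 468 (62.4%) passed in that direction, and of the 1128 higher in Slc6a4 TRAP 655 (58.1%), with 0 in the opposite direction. Both counts use the same TRAP arrays as the calls. The 4 probes with the largest TRAP differences were among them. ILMN_2713714 passed (limma adjusted p = 1.4e-08) although it also differed in total RNA. ILMN_2585676 did not pass, at -0.76 log2 units (SE 0.46, limma adjusted p = 0.40). Its line difference in TRAP was therefore not told apart from that in total RNA.

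The count of 1878 moved by over 1.5 times with any 1 of the 3 Slc6a4 TRAP arrays of batch 1 left out. It was 1154 without their LPS female, 1187 without their LPS male and 1205 without their PBS female. It was 1936 without the Slc6a2 PBS male of batch 2, which stood apart on the second component. Each sample title ends in a letter and a number, and the TRAP lines share letter C alone, with 2 arrays of each. Adding the letter to the fit left 54 called probes, and the 4 arrays of letter C by themselves gave 99. With the letter as a random block, whose correlation within letters was -0.02, 2163 passed, 873 higher in Slc6a2 TRAP and 1290 in Slc6a4 TRAP. Letters A and B each held TRAP arrays of 1 line alone. A letter effect that follows the line goes into the group means, so this correlation and count cannot show it. The 4 probes named first, picked for the largest called differences, passed in each of the fits with the letter in which they were tested. The amplification batch itself, a term of the fit, differed for 88 probes (0.403%), 77 of them lower in batch 2.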

How the data were processed

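RNA was amplified with Nugen Ovation PicoSL and labelled for Illumina bead arrays, 1 per sample, per the labels' protocols. The authors deposited an intensity and a detection p-value for 45281 probes on each of 30 arrays. The deposited intensity values were not normalised between arrays, as judged from the values. The submitters' processing notes name lumi; its role and its version were not given in the sources used here. Among the columns 0 pairs were identical. None of the probe IDs (0 of 45281) was in the RefSeq gene table used for names.

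Background was corrected by normexp from the detection p, followed by quantile normalisation of the 30 arrays together, an offset of 16 and log2 (function neqc of limma 3.58.1, R 4.3.3). Probes entered a fit if they had a detection p under 0.01 on 3 or more of its arrays. The TRAP fit had 1 mean per line, sex and treatment (8 groups, equal weight) and a term for amplification batch. P-values came from lmFit and eBayes (with trend) and were adjusted over all probes of the fit by Benjamini-Hochberg. Residual degrees of freedom were 6 in TRAP, 6 in total RNA and 12 for all arrays; these numbers limit the precision. The 2 lines differ in spread but share 1 estimate of it. Sets by batch, treatment or sex were fitted with additive terms. The labels tie no array to a mouse, so p-values measure the spread between arrays. The script was tested on simulated data.

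The batch is a label of shared handling. The batch 2 minus batch 1 differences of both lines, within sex and treatment, correlated across probes at a mean of 0.085 (0.036 to 0.13, 12 combinations). Named probes are the 2 with the largest called difference per direction, and 1 more for total RNA, chosen after its values were seen. The arrays, rules and gene lists were chosen with earlier results of these data known. The gene and marker lists could not be looked up.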

Additional observations from a re-analysis of the deposited data

Results flagged for a closer look

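In 5 of 36 groups of values checked, 1 array lay far from the others of its group. Chance alone flags about 1 in 20 groups of normally spread values. The groups here share arrays and some hold levels near background, so an excess over that rate was not tested. For ILMN_2729817 the batch 2 LPS male of Slc6a2 TRAP was at 7.11 log2 units, the others from 4.37 to 5.44, and its matched pair differed by -4.40, the other pairs by more, against Slc6a2 arrays that were not detected. The batch 2 PBS male of Slc6a2 TRAP was at 118 on the second component, the others from -54.2 to 21.3. The batch 1 PBS female of Slc6a4 TRAP was at -33.9 on the third component (the others from -10.1 to 4.79) and had a median r of 0.825 with Slc6a2 TRAP arrays (the others 0.846 to 0.861).

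For all 4 probes named first in TRAP the line difference differed between TRAP and total RNA by the test of that difference. The fitted TRAP minus total RNA value was 6.76 log2 units for ILMN_2922875, -6.85 for ILMN_2729817 and -4.98 for ILMN_2713714, each with undetected arrays on its dim side. For ILMN_2669234 the fitted value of 6.54 rests on 3 sets of arrays without detection and measures no size; its TRAP difference is at least 32.7-fold.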

How the results depend on the processing

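The 4 probes named first kept sign and call in TRAP under each of the 36 or 37 alternatives in which they were tested. They were picked from the same arrays for the largest called differences, so this does not bear on the other calls. Their smallest fitted sizes, which rest on dim levels near background, came without background correction (5.68, 4.52, -4.93 and -4.98 log2 units), which compresses levels near background, and their largest adjusted p by limma with the title letter as a term (0.023 for ILMN_2729817). In the total count and both directions (higher in Slc6a2, higher in Slc6a4), the counts were 272, 137 and 135 in batch 1 alone, 242, 109 and 133 in PBS arrays alone, 957, 401 and 556 in female arrays alone and 316, 135 and 181 in male arrays alone, which are fits of fewer arrays. They were 170, 79 and 91 with a minimum of 1 log2 unit, 54, 30 and 24 with the title letter as a term and 99, 46 and 53 in letter C alone. Without a trend in the variance prior they were 1236, 508 and 728, and with median centring 1805, 1091 and 714. No filter on dim probes gave 1430, 534 and 896. The cause of the changes with the letter, the trend and the centring was not tested. With no replicate block (batch left out) 1626 probes passed in TRAP and 0 in total RNA. The 4 probes named first kept their TRAP calls in that setting. ILMN_2713714 and ILMN_2585676 lost their total RNA calls (limma adjusted p = 0.10 and 0.34). With 1 array left out the 3 TRAP counts ran from 1154 to 2450, from 479 to 925 and from 675 to 1525, highest without the batch 1 PBS male of Slc6a2 TRAP. Leaving out the lone PBS male of Slc6a4 TRAP, the contrast ran over the other 3 pairs of groups. Likewise the total RNA count ran from 0 to 26, and it was 0 with the title letter as a term (additive, as the letter could not be fitted with 8 groups). Leaving out arrays for the tests of differing line differences was added after seeing the data. It gave 0 to 1 probes for PBS against LPS (1 without the Slc6a2 PBS male or PBS female of batch 1 or LPS male of batch 2), 0 to 2 for the sexes (2 without that PBS male, 1 without that PBS female) and 1039 to 2000 for TRAP against total RNA. Intensities near background limit the dim side of every large difference. RNA from before the precipitation alone (40 probes) and unbound RNA alone (1) were also added after seeing the data. In total RNA ILMN_2713714 lost its call in 16 of 20 alternatives (adjusted p by limma up to 1.00) and ILMN_2585676 in 4 of 20 (up to 0.66).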
